A study of Homo sapiens and Mus musculus with 19 samples.

Results

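RNF128, DOCK11, PALMD, PTPRS and EMILIN3 are 5 of the 19775 human genes with a probe set of their own on these arrays. They were selected on measured values of these arrays, because the signal with activated IKK beta lay below that with the IkB super-repressor, or below that with the empty vector, in each of 5 human lung cancer lines. The values that chose them are those 2 comparisons, which are therefore described here without a test. Each gene is represented by the probe set that names it alone and is brightest over the human arrays, and the other probe sets are described after it. The 5 genes have 11 such probe sets on the human arrays, and their mouse counterparts have 10 on the mouse arrays.

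The human arrays fell into 3 groups. The IKKb group carried the MiG retrovirus with activated IKK beta, in which serines 177 and 181 are changed to glutamate. The IkB_SR group carried MiG with the IkB alpha super-repressor, in which serines 32 and 36 are changed to alanine. The MiG group carried the control retrovirus. Each vector was put into A549, H23, H358, HCC827 and PC9 cells, which are human lung cancer lines, and 1 array was made for each line and vector, 15 in all. A further 4 arrays came from the mouse line LLC-kB OVA, labelled as lung carcinoma and called LLC here, 2 with IKKb and 2 with MiG. All cells, controls included, were transduced and sorted by GFP, so no untransduced cells are among the groups. Each line and vector stands for 1 sorted population, and both proteins are mutant forms supplied from a retrovirus. Nothing in the labels says that the 2 LLC arrays of a vector came from separate cultures, so their spread may be technical.

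NF-kB transcription factors are kept in the cytoplasm by IkB proteins. The IKK complex, of which IKK beta is the main catalytic subunit in this route, phosphorylates IkB and so marks it for destruction, and the freed dimers enter the nucleus and activate target genes such as TNFAIP3, RELB and NFKBIA. The super-repressor cannot be phosphorylated at the sites that IKK uses and holds the dimers back. In the lung, the pathway is best known for switching inflammatory genes on in epithelial cells. RNF128, DOCK11, PALMD and PTPRS had lower signals with IKKb than with either other vector, EMILIN3 only relative to the empty vector, and the 5 genes come from unrelated families. RNF128, also called GRAIL, is a transmembrane ubiquitin ligase known from unresponsive T cells. DOCK11 is an exchange factor that activates the GTPase CDC42. PALMD, palmdelphin, is a cytosolic relative of the membrane-associated protein paralemmin. PTPRS is a receptor-type tyrosine phosphatase that binds heparan sulphate and chondroitin sulphate proteoglycans. EMILIN3 is a glycoprotein of the extracellular matrix.

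The RefSeq promoter table (GRCh38.p14, 250 bases before to 50 after a transcription start) matched 4 of the 5 genes, all but EMILIN3, with 2 windows for RNF128. DOCK11 (chrX:118495565-118495864, plus strand, 71.0% G and C) and PALMD (chr1:99645863-99646162, plus strand, 51%) held none of the 6 motifs that were searched on both strands. These were the NF-kB consensus, the E-box CACGTG, the CRE TGACGTCA, the AP-1 motif TGANTCA, the TATA box TATAAA and the GC box GGGCGG. Over all 35116 promoters of the table, the NF-kB consensus was present in 11.3%, the E-box in 7.26%, the CRE in 1.85%, the AP-1 motif in 7.71%, the TATA box in 11.5% and the GC box in 44.95%. The 2 windows below are shown because they hold matches to the first 3 motifs. The upstream window of RNF128 (chrX:106693588-106693887, plus strand, 41.0% G and C) and the window of PTPRS (chr19:5340763-5341062, minus strand, 81.3%) are printed 5′ to 3′, with capitals for the NF-kB consensus, the E-box and the CRE.
RNF128, upstream start: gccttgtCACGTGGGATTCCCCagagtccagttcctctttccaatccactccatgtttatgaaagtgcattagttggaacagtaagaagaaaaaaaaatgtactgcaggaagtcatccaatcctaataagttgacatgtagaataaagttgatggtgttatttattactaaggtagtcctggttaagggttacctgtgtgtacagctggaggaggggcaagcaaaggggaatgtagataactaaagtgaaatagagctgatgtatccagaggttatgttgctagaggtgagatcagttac
PTPRS: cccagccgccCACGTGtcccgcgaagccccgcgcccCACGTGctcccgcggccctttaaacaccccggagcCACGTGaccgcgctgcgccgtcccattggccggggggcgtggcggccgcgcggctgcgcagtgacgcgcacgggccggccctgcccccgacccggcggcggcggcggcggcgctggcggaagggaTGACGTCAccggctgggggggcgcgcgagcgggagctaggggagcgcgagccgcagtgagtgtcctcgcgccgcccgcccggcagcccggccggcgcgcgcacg
In the RNF128 window the capitals are an E-box that starts 243 bases before the start site and the only NF-kB consensus match among the 5 windows, GGGATTCCCC, which starts 238 bases before it and shares 1 base with the E-box. In the PTPRS window they are 3 E-boxes, which start 240, 214 and 179 bases before the start site, and a CRE that starts 54 bases before it, beside 3 GC boxes left in lower case. The second window of RNF128 (chrX:106726451-106726750, plus strand, 56.7% G and C) held no NF-kB consensus, E-box or CRE but had the TATA box letters on each strand at 179 and 181 bases before the start, and 1 GC box. These are letter matches within 300 bases, and the data hold no measure of binding there.

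The signals are MAS5 intensities, scaled by the authors so that the mean of each array without its lowest and highest 2 percent is 500. Array medians ranged from 51.3 to 76.5 on human arrays and from 55.0 to 64.4 on mouse arrays, and the 40th percentile of an array, used here as the mark for low signals, from 28.7 to 44.98 and from 30.1 to 39.6. In the check of the vectors, TNFAIP3, RELB, NFKB2 and ICAM1 were higher with IKKb than with IkB_SR in 5 of 5 lines, TNFAIP3 by 4.18-fold to 37.2-fold and RELB by 3.27-fold to 6.50-fold. The IKBKB probe set was higher with IKKb than with MiG in 1 of 5 lines, and its position relative to the vector's insert was not checked. In 4 of 5 lines NFKBIA was above its MiG signal with IkB_SR, by 1.60-fold to 7.08-fold, and the exception was H23 (7292 with IkB_SR and 9329 with MiG). In H23 the targets TNFAIP3 (927 with IkB_SR and 2840 with MiG) and RELB (259 with IkB_SR and 548 with MiG) were nevertheless lower with IkB_SR. In H358, NFKB2 (85.3 with IkB_SR and 66.5 with MiG) and ICAM1 (520 and 453) were higher with IkB_SR. RELB in H358 was little changed (64.7 with IkB_SR and 70.9 with MiG), and TNFAIP3 was lower (130 and 285). The IKKb array of H358 stood apart from the other 2 of that line, with 5908 for the 3′ Dap control probe set, against 1598 with IkB_SR and 1662 with MiG, and an actin 3′ to 5′ ratio of 1.74, against 1.38 with IkB_SR and 1.41 with MiG. Between lines the Dap signal differed more, from 174 to 211 on the A549 arrays and from 1598 to 6765 on the other human arrays. In LLC it was 2480 (MiG) and 2186 (IKKb) on the arrays numbered 1, but 36.5 and 0.55 on those numbered 2. Of the 10 epithelial markers, 6 were above the 40th percentile on all 15 human arrays. The summed signal of 6 leukocyte markers ranged from 213 to 1043 with IKKb, from 221 to 614 with IkB_SR and from 272 to 802 with MiG, and that of 5 fibroblast markers from 586 to 2974 with IKKb, from 633 to 2917 with IkB_SR and from 654 to 2838 with MiG. One of the 4 leukocyte markers tested, ITGAM, passed as higher with IKKb than with IkB_SR, at 1.72 ± 0.34 (SE; adjusted p = 0.0327 in limma). The other 3 did not pass, with CD14 at -1.04 ± 0.32 (SE; adjusted p = 0.164 in limma; lower in 5 of 5 lines), CD3E at -0.34 and CD79A at 0.24. PTPRC, the defining leukocyte marker (2.77 to 37.3), and LYZ were each below the 40th percentile on 14 of 15 arrays. CD3E was below it on 8, CD14 on 5, ITGAM on 4 and CD79A on 0 of the 15 (77.7 to 230 for CD79A). On the LLC arrays only Krt8, Krt18 and Sftpb of the 10 epithelial markers were above that mark on all 4.

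RNF128 was lower with IKKb than with both other vectors in 5 of 5 lines. Its signal with IKKb was 48.3 (A549), 79.4 (H23), 60.96 (H358), 16.4 (HCC827) and 1.75 (PC9). With IkB_SR it was 131 (A549), 102 (H23), 160 (H358), 121 (HCC827) and 86.9 (PC9), and with MiG it was 68.7, 81.9, 129, 48.6 and 30.7 in the same order of lines. All IKKb values lay below all IkB_SR values, also across lines, whereas the MiG values overlapped both groups. Taken within each line on the log2(signal + 16) scale, which understates changes of low signals, IKKb minus IkB_SR averaged -1.46 ± 0.87 (SD, n = 5 lines) and IKKb minus MiG -0.75 ± 0.53 (SD, n = 5). The difference was widest in PC9 (-2.54 against IkB_SR) and narrowest in H23 (-0.30 against IkB_SR and -0.04 against MiG). The IKKb arrays of HCC827 and PC9 and the MiG array of PC9 were below the 40th percentile, so the size of the difference in these lines rests on signals near background. With 1 or 64 added to the signals in place of 16, the mean difference of RNF128 from IkB_SR was -2.19 or -0.85, and that from MiG was -1.33 or -0.38. Its difference from IkB_SR was the widest of the 5 genes with 16 or 1 added, but with 64 added those of DOCK11 (-1.002), PALMD (-0.866) and PTPRS (-0.867) were wider. In bulk cells such as these, fewer cells expressing a gene and less RNA per cell cannot be told apart.

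DOCK11 was lower with IKKb than with both other vectors in 5 of 5 lines, by -0.72 in A549 to -1.39 in HCC827 against IkB_SR and by -0.37 in A549 to -1.12 in H358 against MiG on the log2 scale. With IKKb its signal was 363 (A549), 190.0 (H23), 205 (H358), 95.5 (HCC827) and 354 (PC9). With IkB_SR it was 611, 435, 552, 276 and 828 in the same order, and with MiG 473, 280.2, 465, 176 and 517. Within each line the order was IKKb, MiG, IkB_SR from low to high, while across lines the ranges of the vectors overlapped. IKKb minus IkB_SR averaged -1.16 ± 0.27 (SD, n = 5 lines) on the log2 scale, a 2.23-fold lower signal, and IKKb minus MiG -0.66 ± 0.30 (SD, n = 5). Its spread between lines against IkB_SR was the smallest of the 5 genes, and no DOCK11 signal of this probe set was below the 40th percentile.

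PALMD had the same order of vectors within each line at very different levels. With IKKb its signal was 107 (A549), 175 (H23), 14.8 (H358), 329 (HCC827) and 29.4 (PC9). With IkB_SR it was 195, 334, 76.4, 645 and 168, and with MiG 149, 271, 49.0, 547 and 45.3, in the same order of lines. IKKb minus IkB_SR averaged -1.24 ± 0.54 (SD, n = 5 lines) and IKKb minus MiG -0.65 ± 0.27 (SD, n = 5). Across lines the groups overlapped widely, and HCC827 was above the other lines with each vector. The IKKb arrays of H358 and PC9 were below the 40th percentile.

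PTPRS was lower with IKKb than with both other vectors in 5 of 5 lines. With IKKb its signal was 187 (A549), 714 (H23), 432 (H358), 341 (HCC827) and 436 (PC9). With IkB_SR it was 348, 1028, 852, 1169 and 717, and with MiG 350.8, 838, 709, 824 and 588, in the same order of lines. In A549 the IkB_SR and MiG signals were nearly equal, so the graded order of RNF128, DOCK11 and PALMD was present for PTPRS in 4 of 5 lines. IKKb minus IkB_SR averaged -0.95 ± 0.47 (SD, n = 5 lines) and IKKb minus MiG -0.68 ± 0.39 (SD, n = 5), with HCC827 widest in both (-1.73 against IkB_SR and -1.23 against MiG).

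EMILIN3 met the choice only through the empty vector. With IKKb its signal was 20.5 (A549), 74.8 (H23), 15.4 (H358), 17.5 (HCC827) and 30.8 (PC9). With IkB_SR it was 91.4, 65.4, 41.0, 53.5 and 21.2, and with MiG 88.0, 161, 54.4, 85.4 and 66.6, in the same order of lines. IKKb was below MiG in 5 of 5 lines, by -1.21 ± 0.34 (SD, n = 5), but below IkB_SR in 3 of 5, where the mean was -0.60 ± 0.81 (SD, n = 5) and H23 (0.16) and PC9 (0.33) had the higher signal with IKKb. Its IKKb signals were below the 40th percentile in every line but H23, and its IkB_SR signal was below it in PC9. EMILIN3 was thus lower than with the empty vector in 5 of 5 lines with IKKb and in 4 of 5 with IkB_SR. With 1 or 64 added to the signals in place of 16, the mean difference of EMILIN3 from MiG was -1.64 or -0.69, and without A549 its mean difference from IkB_SR was -0.35.

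**Figure D1:**
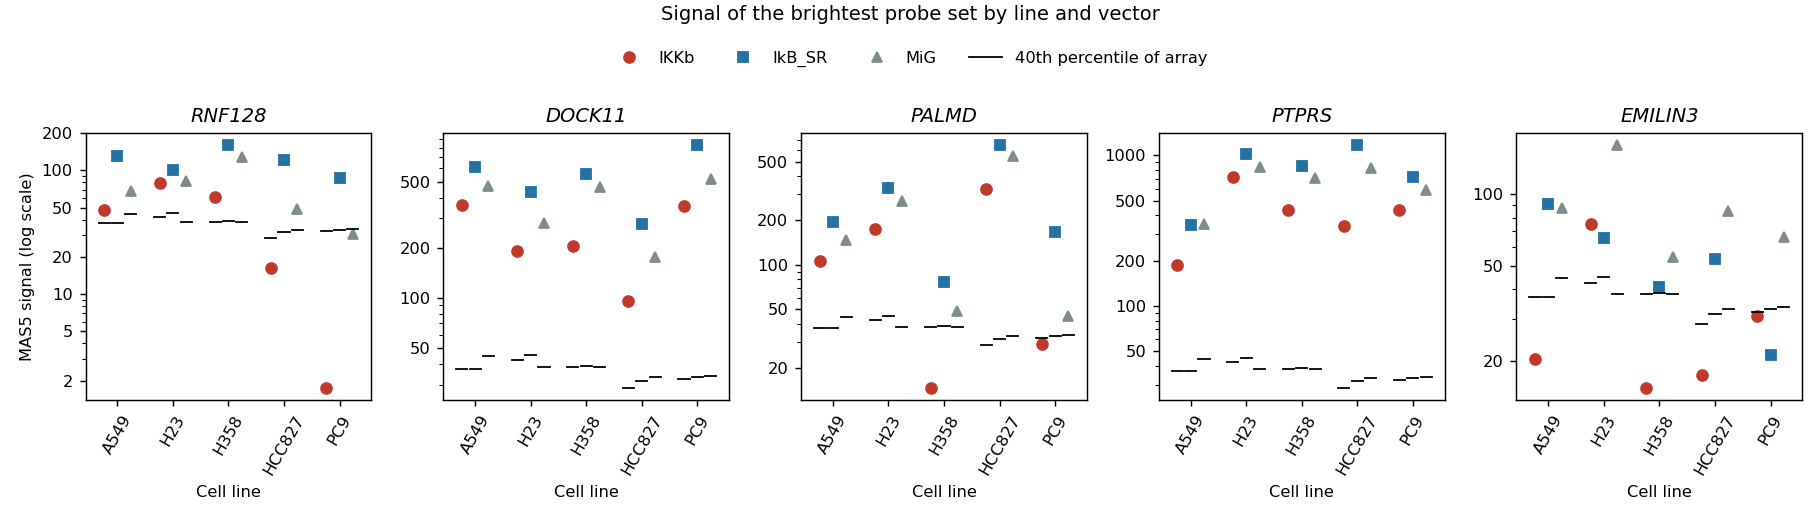
MAS5 signal (log axis) of the brightest probe set of each gene in 5 human lines with IKKb (circles), IkB_SR (squares) and MiG (triangles), 1 array each, with a black mark at the 40th percentile of each array. RNF128, DOCK11 and PALMD run IKKb, MiG, IkB_SR from low to high in every line, and 4 of the 5 EMILIN3 signals with IKKb lie below the mark.

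**Figure D2:**
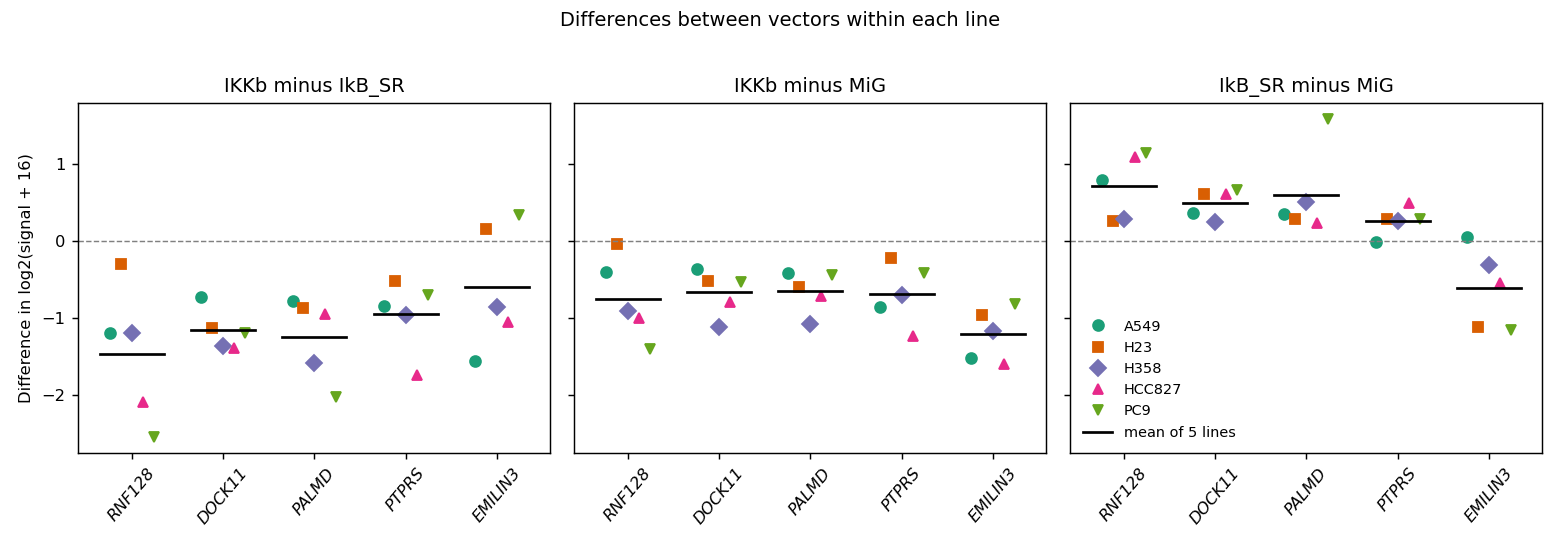
Difference in log2(signal + 16) between vectors within each line (points) and its mean over 5 lines (black bar). All points of IKKb minus MiG lie below 0, down to -1.60, and EMILIN3 differs from the other genes in having 2 lines above 0 for IKKb minus IkB_SR and 4 lines below 0 for IkB_SR minus MiG.

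Counts over all 15212 human genes kept by the filter on low signals give the background of the choice. Of these genes, 5.73% were lower with IKKb than with IkB_SR in 5 of 5 lines, 4.83% were lower with IKKb than with MiG, and 9.18% met at least one of the 2 conditions. Both conditions held for 1.38% of genes, which include RNF128, DOCK11, PALMD and PTPRS, and the graded order IKKb, MiG, IkB_SR held in 5 of 5 lines for 38 genes (0.25%), among them RNF128, DOCK11 and PALMD. All 5 genes passed the filter, and because the choice used these contrasts nothing more is read from the counts. Among the 5 genes, RNF128 met each condition most narrowly, with its highest line at -0.30 against IkB_SR and -0.04 against MiG. The nearest genes outside were sought among those with a mean as low as the least-changed of the 5 meeting the same condition. They were ZNF488, with a mean of -1.26 against IkB_SR and 0.06 in A549, and PRR36, with a mean of -0.75 against MiG and 0.01 in A549. Of the genes that stood beside the 5 in earlier results, INHBB, which encodes an activin and inhibin subunit, and SCNN1A, which encodes part of the epithelial sodium channel, were lower than with IkB_SR in 5 of 5 lines and lower than with MiG in 4 of 5, and LTBP3, a matrix protein that binds latent TGF-beta, was lower in 5 of 5 in both.

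The size of the difference was not the same in each line. The mean of the 5 genes for IKKb minus IkB_SR was -1.02 (A549), -0.53 (H23), -1.19 (H358), -1.44 (HCC827) and -1.22 (PC9). In the same lines, the mean of 17 NF-kB feedback and target genes for the same difference was 1.22, 1.395, 2.50, 3.50 and 1.61. These genes include NFKBIA, which encodes IkB alpha, the protein that the IkB_SR vector supplies in mutant form. Its signal with IKKb was from 0.193 (PC9) to 1.36 (H23) of that with IkB_SR, and the mean without it was not taken. HCC827 had the widest mean of both, while H23 had the narrowest mean of the 5 genes and A549 the narrowest mean of the target genes. Without EMILIN3, which met the choice through MiG only, PC9 was widest, with a mean of -1.61 over the other 4 genes, beside -1.54 in HCC827. Without the H358 array with IKKb, the mean differences from IkB_SR were -1.47 for RNF128, -1.08 for DOCK11, -1.14 for PALMD, -0.95 for PTPRS and -0.57 for EMILIN3. Without the H23 array with IkB_SR they were -1.66 for RNF128, -1.15 for DOCK11, -1.32 for PALMD, -0.997 for PTPRS and -0.75 for EMILIN3.

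The comparison of IkB_SR with MiG asks whether blocking the pathway moves these genes without added IKK. In H358, however, the targets NFKB2 and ICAM1 were not lower with IkB_SR than with MiG. RNF128, DOCK11 and PALMD had more signal with IkB_SR in 5 of 5 lines, PTPRS in 4 of 5, and EMILIN3 was lower in 4 of 5. This contrast shares its arrays with the 2 that chose the genes, so it is not independent of the choice, and 4.04% of all genes were higher and 3.71% lower in 5 of 5 lines. In limma's test over all 15 arrays with the line as a block, none of the 5 genes passed an adjusted p of 0.05. DOCK11 came nearest, at 0.49 ± 0.13 (SE) with an adjusted p of 0.865 in limma. RNF128 was at 0.71 ± 0.27 (SE), PALMD at 0.59 ± 0.21, PTPRS at 0.26 ± 0.15 and EMILIN3 at -0.61 ± 0.26, each with an adjusted p of 0.995 in limma. No gene of the 15212 passed in this contrast (0.00% called), and 675 (4.44%) had an unadjusted p under 0.05. The PALMD value owed most to PC9, where the signal was 168 with IkB_SR and 45.3 with MiG, and without PC9 the estimate was 0.34.

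Other probe sets of PTPRS did not follow the brightest one. The brightest PTPRS probe set was 226571_s_at, and the next, 229465_s_at, had signals from 259.5 to 766, never below the 40th percentile. For 229465_s_at, IKKb minus IkB_SR averaged -0.39 ± 0.34 (SD, n = 5 lines; lower in 4) and IKKb minus MiG -0.10 ± 0.33 (SD, n = 5; lower in 3). The dimmer 210823_s_at of PTPRS was lower with IKKb than with IkB_SR in 4 of 5 lines and than with MiG in 2 of 5, and 1555666_at was below the 40th percentile on all 15 arrays. The statement that PTPRS was lower with IKKb than with both vectors in every line therefore holds for 1 of its 4 probe sets. The second PALMD probe set, 222725_s_at, was lower with IKKb than with IkB_SR in 5 of 5 lines, by -1.07 ± 0.79 (SD, n = 5), and than with MiG in 4 of 5, with A549 at 0.23. The third, 232187_at, was below the 40th percentile on 13 of 15 arrays. It was lower with IKKb than with IkB_SR in 5 of 5 lines and than with MiG in 2 of 5. The dim second probe set of DOCK11, 238356_at, with signals from 17.5 to 89.1, had mean differences of -0.07 from IkB_SR (lower in 4 of 5 lines) and 0.12 from MiG (lower in 1 of 5). For PALMD and DOCK11 too, a lower signal than with both vectors in every line thus held for the brightest probe set only. With the mean of its probe sets in place of the brightest, DOCK11 was at -0.61 from IkB_SR and -0.27 from MiG, PTPRS at -0.50 and -0.22, and both were lower with IKKb than with MiG in 3 of 5 lines. RNF128 and EMILIN3 had 1 probe set each.

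**Figure D3:**
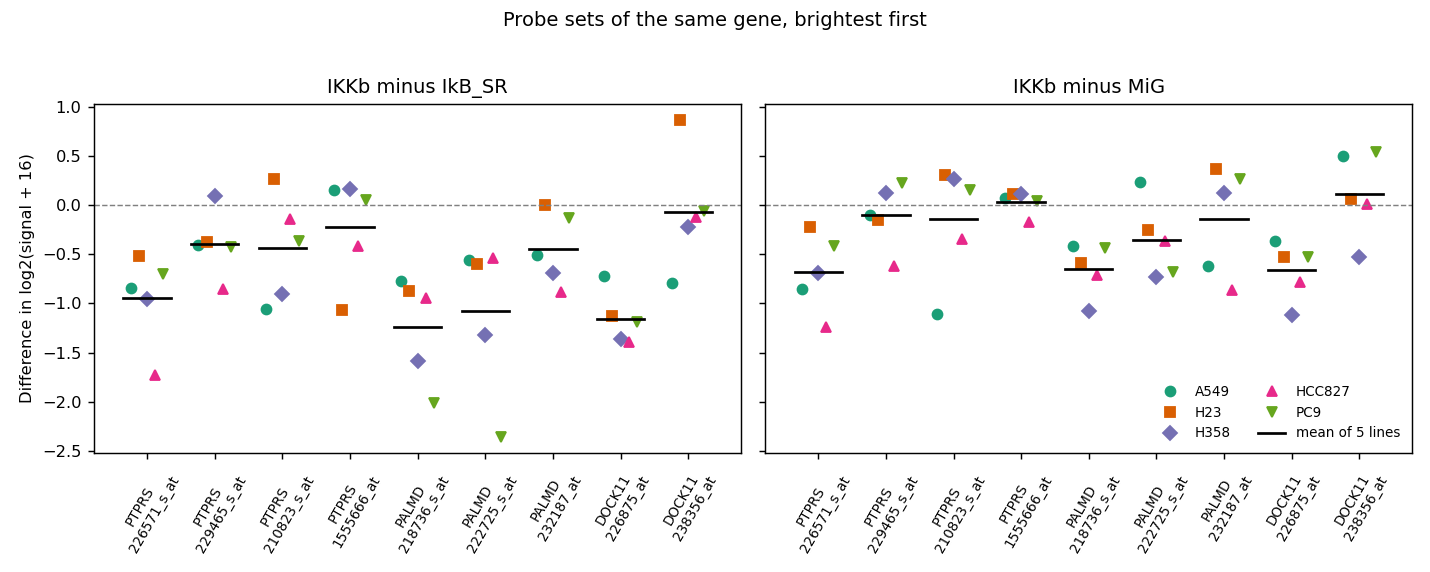
Difference in log2(signal + 16) within each line (points) and mean over 5 lines (black bar) for every probe set of PTPRS, PALMD and DOCK11, brightest first within a gene. The brightest PTPRS probe set averages -0.68 against MiG and the next one -0.10, while the 2 brighter PALMD probe sets average -1.24 and -1.07 against IkB_SR.

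Each gene also had its own order of lines, which the choice did not use. limma's F test of the 5 lines in the same fit passed for all 5 genes, as it did for 86.7% of all genes. The level of a line is given here as the mean of log2(signal + 16) over its 3 arrays, turned back to a signal with the 16 taken off again, which lies above the geometric mean where a signal is low. PALMD varied most, from a level of 489 in HCC827 through 252 in H23, 146 in A549 and 63.9 in PC9 to 40.95 in H358 (F test adjusted p = 2.37e-07 in limma). DOCK11 ran from PC9 through A549, H358 and H23 to HCC827, with 534 in PC9 and 168 in HCC827 (adjusted p = 2.99e-06 in limma). PTPRS ran from H23 through HCC827, H358 and PC9 to A549, with 850.4 in H23 and 284 in A549 (adjusted p = 3.19e-05 in limma), and without A549 the adjusted p of the PTPRS F test was 0.0944. This order belongs to the brightest PTPRS probe set only. With the next one, 229465_s_at, A549 was the highest line with each vector (F test adjusted p = 0.000156 in limma). Its A549 signals were 573 (IKKb), 766 (IkB_SR) and 613 (MiG), beside 497, 649 and 552 in H23. RNF128 ran from H358 through H23, A549 and HCC827 to PC9, with 109 in H358 and 28.0 in PC9 (adjusted p = 0.00651 in limma, and 0.0753 without PC9). EMILIN3 ran from H23 through A549, HCC827 and PC9 to H358, with 93.4 in H23 and 34.2 in H358 (adjusted p = 0.0342 in limma, 0.382 without H23, 0.0623 without H358 and 0.0545 without the IKKb array of H358). The adjusted p of the EMILIN3 F test in limma was 0.0635 with 1 added to the signals in place of 16. It was 0.0790 after quantile normalisation and 0.0834 after median centring. With the brightest probe sets, neighbours in these orders overlapped in the range of their 3 arrays, except PC9 and A549 for PTPRS. HCC827 was thus highest for PALMD and lowest for DOCK11, so the genes did not share an order of lines.

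In LLC the comparison of IKKb with MiG rests on arrays that had no part in the choice of the genes. None of the 3 counterparts that could be tested passed limma's test. Rnf128 had 247 and 371 with IKKb, against 366 and 439.8 with MiG. The groups overlapped, but at each array number the IKKb signal was below the MiG signal (247 and 366, then 371 and 439.8). With the second Rnf128 probe set, 1449036_at, this held at number 1 (157 with IKKb, 203 with MiG) but not at number 2 (297 and 290). The share of all genes below MiG at each array number was not counted, and what the array numbers mean is not given. With the brightest probe set, the Rnf128 difference was -0.39 ± 0.27 (SE) on the log2 scale (-0.67 without the second IKKb array and -0.11 without the first), with an adjusted p of 0.9997 in limma. Dock11 had 1389 and 1485 with IKKb and 1238 and 1502 with MiG, a difference of 0.07 ± 0.19 (SE) with the same adjusted p in limma. Ptprs had 2222 and 2144 with IKKb and 2610 and 2402 with MiG. Its groups did not overlap, and nor did those of 11.2% of all mouse genes in this direction, and the difference was -0.20 ± 0.17 (SE) with the same adjusted p in limma. The Ptprs probe set 1436855_at, above the 40th percentile on all 4 arrays, did not overlap either but ran the other way (179.4 and 179.2 with IKKb, 125 and 135 with MiG), and so did the groups of 10.9% of all mouse genes. The 3 Ptprs probe sets beside the brightest, 2 of them with signals below 40, had differences of 0.42, 0.73 and 0.90, and the second probe sets gave -0.16 for Rnf128 and -0.36 for Dock11. Palmd (31.9 and 25.003 with IKKb, 24.4 and 12.8 with MiG) was below the 40th percentile on 3 of 4 arrays and Emilin3 (14.9 and 10.9 with IKKb, 10.9 and 11.6 with MiG) on all 4, so neither was tested. No gene of 12549 passed in this comparison, and 238 (1.9%) had an unadjusted p under 0.05. That count of 0 was not stable, with 223 genes past the threshold with the array number as a replicate block and 5 to 138 when 1 array was left out. All 11 NF-kB feedback and target genes tested in LLC were higher with IKKb, with a median of 1.41, and none passed either, Nfkbie coming nearest at 3.53 ± 0.29 (SE; adjusted p = 0.0552 in limma). A p that misses the threshold in LLC thus does not show that a gene was unaffected.

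**Figure D4:**
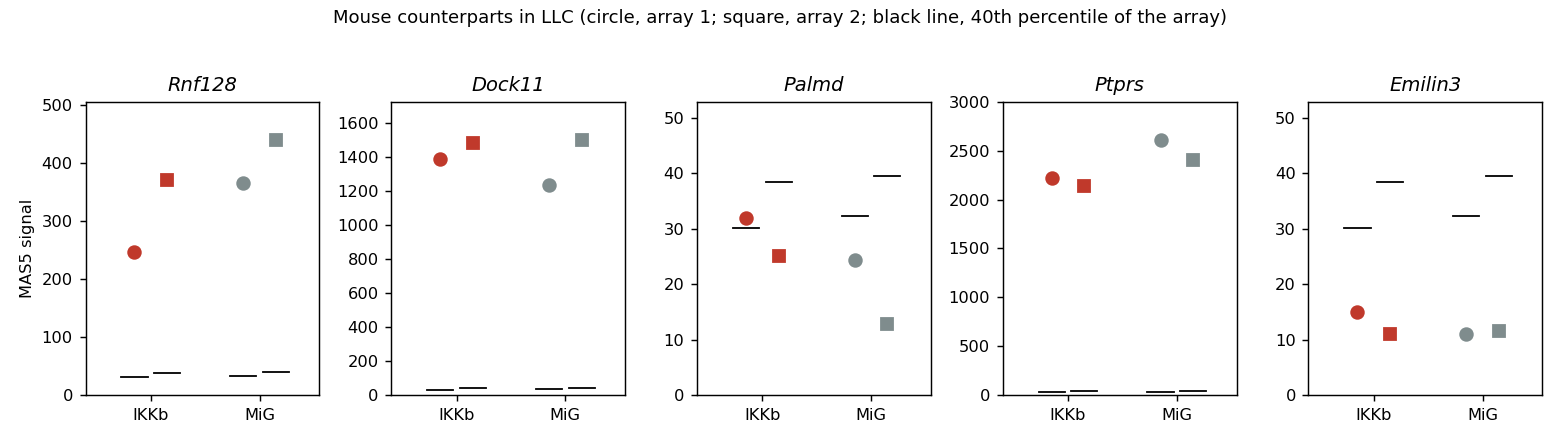
MAS5 signal of the brightest probe set of each mouse counterpart in LLC with IKKb (left) and MiG (right), 1 point per array, with a black line at the 40th percentile of the array. Ptprs is lower on both IKKb arrays, and Rnf128 and Dock11 overlap between vectors. With this probe set, but not with its second one, Rnf128 is lower with IKKb at each array number. Of the 8 points of Palmd and Emilin3, 7 lie below the line.

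Relatives and partners of the 5 genes were followed in lists chosen with earlier results known. Against IkB_SR, where 0.322% of all genes passed as lower and 0.611% as higher, 5 genes of these lists passed as lower in limma and none as higher. PALM, paralemmin, the founding member of PALMD's family, fell by 0.96 ± 0.19 (SE) on the log2 scale with IKKb relative to IkB_SR (adjusted p = 0.0328 in limma; lower in 5 of 5 lines), 1 of the 3 other family genes tested. The list median was -0.81, beside -0.01 for all genes. Of 11 heparan sulphate proteoglycan genes tested, whose products PTPRS can bind, GPC1 and GPC4 passed. These encode glypicans, proteoglycans anchored at the cell surface. GPC1 was at -0.46 ± 0.09 (SE; adjusted p = 0.0328 in limma) and GPC4 at -0.82 ± 0.17 (SE; adjusted p = 0.0369 in limma), each lower in 5 of 5 lines, while the list median was 0.02. Of 16 elastic fibre and microfibril genes, FBLN1, fibulin 1, was at -0.88 ± 0.16 (SE; adjusted p = 0.0246 in limma) and LTBP3 at -0.57 ± 0.09 (SE; adjusted p = 0.0125 in limma), with a list median of -0.21 and 12 of 16 genes below 0. LTBP3 had already been singled out in earlier results, so its place is not independent evidence, and with the mean of its probe sets it was at -0.09. None of the 5 fibroblast markers tested passed in this contrast, and they lay on both sides of 0, from COL1A2 at -0.84 ± 0.28 (SE) to LUM at 0.28 ± 0.22 and PDGFRA at 0.38 ± 0.34. Without PC9 or without HCC827 none of these 5 calls remained, with adjusted p from 0.0730 to 0.178 in limma. Without H23, or without its IkB_SR array alone, only LTBP3 remained of the 5. GPC1 and GPC4 were also lost without A549, PALM and GPC4 without H358, and PALM without the IKKb array of H358.

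The closest relatives of the other genes did not pass. Among 8 other DOCK genes tested, with a median of -0.15, DOCK6 was nearest to the threshold, at -0.52 ± 0.16 (SE; adjusted p = 0.161 in limma; lower in 5 of 5 lines). Of 14 other receptor-type tyrosine phosphatases, with a median of -0.06, PTPRD, a close relative of PTPRS, was nearest at -1.02 ± 0.35 (SE; adjusted p = 0.213 in limma; lower in 4 of 5 lines). Of 8 ubiquitin ligases built like RNF128, with a median of -0.07, RNF130 was nearest at -0.21 ± 0.09 (SE; adjusted p = 0.329 in limma). OTUB1, a deubiquitinase reported to act on RNF128, was at 0.11 ± 0.06 (SE; adjusted p = 0.473 in limma), and EMILIN2, the nearest of 2 genes of the EMILIN3 family tested, at 0.25 ± 0.14 (SE; adjusted p = 0.446 in limma). None of the listed genes passed in IKKb against MiG, where 0 of 15212 genes did and 839 (5.52%) had an unadjusted p under 0.05, or in IkB_SR against MiG. In LLC none passed either, and Palm was at -0.25 ± 0.21 (SE) with an adjusted p of 0.9997 in limma.

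**Figure D5:**
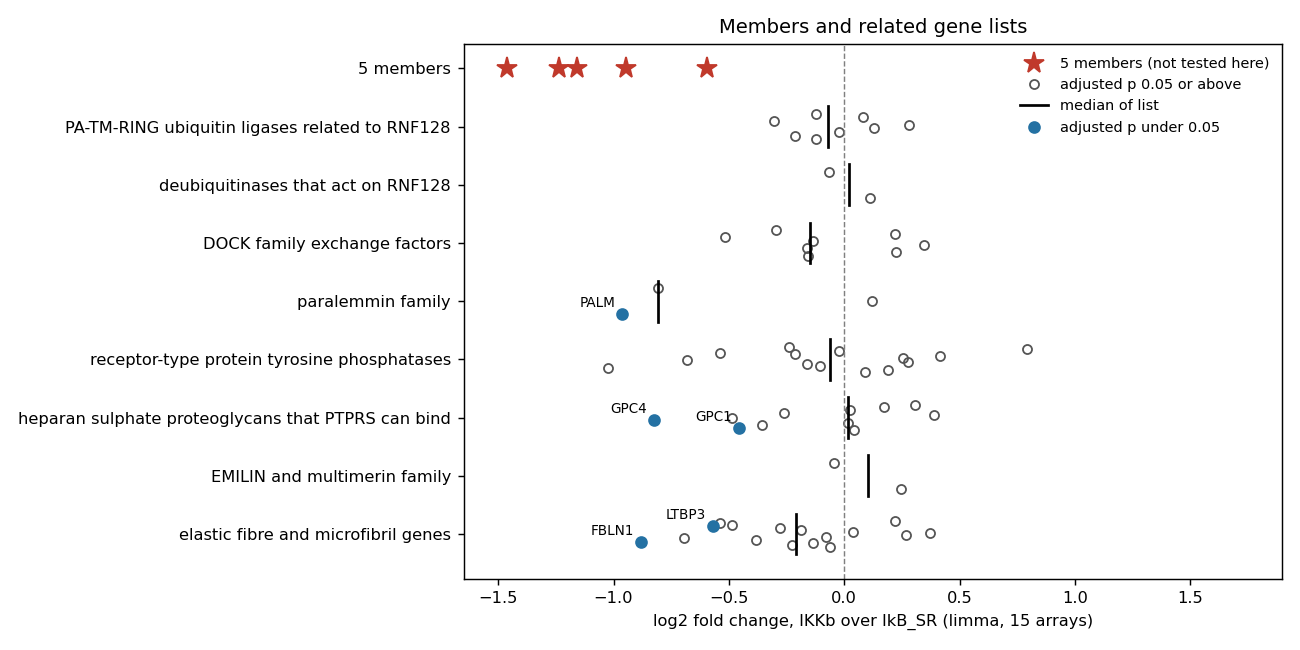
log2 fold change of IKKb over IkB_SR (limma, 15 human arrays) of the 5 genes (stars, not tested because this contrast chose them) and of their relatives and partners by list, with filled points for an adjusted p under 0.05 and a bar at the list median. PALM, GPC1, GPC4, FBLN1 and LTBP3 are the 5 filled points, between -0.96 and -0.46.

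Across the 15 human arrays, with the mean of each line removed, RNF128, DOCK11, PALMD and PTPRS had Pearson correlations of 0.78 to 0.92 with each other. EMILIN3 correlated at 0.29 to 0.63 with them. These describe the same arrays that chose the genes, over 5 lines with 3 vectors each, and carry no test. Among the other 15211 genes kept, DOCK11 was most like UCP2 (0.98), a mitochondrial carrier, TRIM2 (0.96), a ubiquitin ligase, and PALM (0.96). RNF128 was most like NR5A1 (0.95), RXRA (0.95), both nuclear receptors, and CRIP2 (0.93). PALMD was most like ARID5B, LPCAT1 and PIK3R3 (0.93 each), PTPRS most like ATP8B3 (0.95), FGD1 (0.94) and CTSV (0.94), and EMILIN3 most like ASH1L-AS1 (0.97), ZDHHC7 (0.87) and DCAF17 (0.87).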

How the data were processed

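Biotin-labelled RNA of 15 human and 4 mouse samples was read on Affymetrix arrays of 1 colour. Each deposited value is the linear intensity of a probe set, computed with GCOS 1.4 and MAS5 per the submitters' processing notes. The mean of each array without its lowest and highest 2 percent was checked to be 500, so total RNA cannot be compared. Probe sets were named through the platform annotation, in which 41097 human probe sets name 1 gene, 1801 several and 11777 none (mouse 34958, 932 and 9211), and only the first kind was used.

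A gene was its brightest probe set by mean log2(signal + 16), and was kept when above the 40th percentile of the array on at least 5 human or 2 mouse arrays (15212 human and 12549 mouse genes). Tests were those of limma 3.58.1 in R 4.3.3 (lmFit, eBayes with an intensity trend, two-sided), with Benjamini-Hochberg adjustment over all genes kept and a threshold of 0.05. The human fit used all 15 arrays with the line as a block, since arrays of one line come from the same cells and their deviations correlated at 0.80 to 0.92. The LLC fit had no block. The number of arrays limits the precision.

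The 5 genes, the lists of related genes and the markers were chosen with earlier results of these data known. Named beside the 5 genes were, per list and contrast, up to 3 genes past the threshold or otherwise the one with the smallest p (here for IKKb against IkB_SR), INHBB, SCNN1A and LTBP3, vector checks, and the 3 genes most correlated with each. COL1A2 and ITGAM came from the marker lists by the same rule, and the markers beside them were added after their values were seen. Alternatives covered the pseudocount, filter, scaling, probe set rule, prior, block and each replicate. Python 3.11.15 and matplotlib 3.10.9 drew the figures.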

Additional observations from a re-analysis of the deposited data

Results flagged for a closer look

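Over the 5 genes, the signals with each vector and the differences between vectors made 30 groups of 5 lines, and 1 of these held a value far from the others. For PALMD, IkB_SR minus MiG was 1.58 on the log2 scale in PC9, while the other 4 lines lay between 0.23 and 0.51. The gap to the nearest line was 0.796 of the whole range, above the critical value of 0.71 for 5 values, and chance alone gives about 1 such value in 20 groups.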

How the results depend on the processing

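The directions of the 5 genes held in most alternatives, but those of IKKb against the other vectors were used to choose the genes. For IKKb minus IkB_SR over the fits without 1 line or 1 array, RNF128 ran from -1.75 to -1.19, DOCK11 from -1.27 to -1.08, PALMD from -1.35 to -1.04, PTPRS from -1.05 to -0.75 and EMILIN3 from -0.83 to -0.35. All of these but EMILIN3 were below IkB_SR in 5 of 5 lines. Leaving out a line could therefore not change their sign, and their ranges describe size only. Other probe sets gave the opposite sign for IKKb minus MiG, 0.035 for PTPRS (1555666_at) and 0.12 for DOCK11 (238356_at). In LLC, the mean of probe sets gave -0.15 for Dock11 and 0.46 for Ptprs, the other probe sets -0.36 for Dock11 and 0.90, 0.73 and 0.42 for Ptprs, and leaving out 1 array -0.064 to 0.21 for Dock11, the first value without the first MiG array. Among relatives, DOCK10 for IkB_SR minus MiG was -0.25, ran from -0.40 to 0.066 without 1 line or array, and turned to 0.015 without H23 and 0.066 without its IkB_SR array, OTUB1 and EMILIN2 for IKKb minus MiG turned to -0.0049 and -0.12 with the mean of probe sets, and Otub1 in LLC ran from -0.065 without the first IKKb array to 0.45; the cause was not tested.

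The 142 genes called in IKKb against IkB_SR were 86 with no filter, 44 with the mean of probe sets, 21 without the trend, 15 with the arrays of the 2 vectors only, 69 without the H23 array with IkB_SR, and 24 to 129 without 1 line or array (24 without PC9, 31 without HCC827, 67 without H23, 97 without H358). With no replicate block, 0 passed and 87 had an unadjusted p under 0.05, since differences between lines then enter the error. IkB_SR against MiG gave 0 to 8 without 1 line (8 without H358) and 1 with the arrays of the 2 vectors only, and IKKb against MiG gave 1 with the mean of probe sets. None of the 5 genes passed in these fits of IkB_SR against MiG. In LLC the replicate block gave 223 calls, none of them Rnf128 (adjusted p = 0.345 in limma), Dock11 (0.904) or Ptprs (0.619), a pseudocount of 64 gave 2, and leaving out 1 array gave 5 to 138. Same-numbered LLC arrays had deviations that correlated at 0.53 over genes, and what the array numbers mean is not given. PALM, GPC1, GPC4, LTBP3 and FBLN1 stayed past the threshold in 8, 8, 4, 12 and 10 of 18 alternatives. Signals near background limit RNF128, PALMD and EMILIN3 with IKKb.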
